A study of Mus musculus with 20 samples.

Results

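The guanylate-binding proteins and immunity-related GTPases were examined in mouse skin, together with Irf1, a transcription factor that acts on their promoters. The set was Gbp2, Gbp2b, Gbp3, Gbp6, Gbp7, Igtp, Irgm1, Irgm2, Iigp1 and Irf1, which are 10 of the 18194 genes named on the array, and every probe-set annotated with one of these symbols and no other was taken. This gave 14 probe-sets of the 45101 on the array, and all 14 were among the 30960 that were tested. Female C57BL/6 mice, bought at 6 weeks of age, were compared in 4 groups of 5, with 1 array for each mouse. For naïve mice no injection is described. Mice of the other groups had 3 µg of recombinant murine IL-23 injected into the skin of the back each day from day 1 to day 4. They then had saline (PBS), IMO-3100 at 15 mg/kg or IMO-8400 at 15 mg/kg injected under the skin at a distant site on days 4, 5 and 6, and skin at the IL-23 injection site was taken on day 7. IMO-3100 is an antagonist of TLR7 and TLR9, and IMO-8400 an antagonist of TLR7, TLR8 and TLR9. No group had an antagonist without IL-23, and since no vehicle-injected group without IL-23 was included, the injections and IL-23 itself cannot be told apart in the comparison with naïve skin.

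Guanylate-binding proteins are large GTPases, and immunity-related GTPases are smaller ones, that a cell makes in response to interferon and that gather on membranes around bacteria and parasites inside it. Interferon-gamma acts through a promoter element called GAS, while type I interferon and the interferon regulatory factors act through an element called ISRE. Many of these GTPase genes carry such elements close to their starts. Within the immunity-related GTPases, Irgm1, Irgm2 and Igtp (Irgm3) are regulators that keep the effector GTPases, such as Iigp1 (Irga6), inactive on the cell's own membranes.

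The promoter sequences are shown as background to the family, and a link between the motifs and the expression values was not tested. RefSeq promoter windows of mouse build GRCm38.p6, which run from 250 bases before to 50 bases after an annotated gene start, were at hand for 8 of the 10 genes. No window was given for Gbp6 or Iigp1. Each window was searched on both strands for the ISRE-type motif GAAANNGAAA and for the GAS-type motif TTCNNNGAA, where N is any base. The ISRE-type motif was found in 7 of the 8 genes (7 of their 10 windows), while 3.99% of all 27025 genes and 3.44% of all 32851 windows held it. The GAS-type motif was found in 4 of the 8 genes (4 of 10 windows), and in 9.55% of all genes and 8.3% of all windows. The stretch around each ISRE-type match follows, written 5′ to 3′ on the strand of the gene, with the motif in capitals.
Gbp2: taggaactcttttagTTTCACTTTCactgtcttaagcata
Gbp2b: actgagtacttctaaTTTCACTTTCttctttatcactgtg
Gbp3: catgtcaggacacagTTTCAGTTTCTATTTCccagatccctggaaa
Gbp7: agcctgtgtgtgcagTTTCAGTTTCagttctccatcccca
Igtp: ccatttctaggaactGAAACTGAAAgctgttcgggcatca
Irgm2: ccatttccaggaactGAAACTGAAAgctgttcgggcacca
Irgm1: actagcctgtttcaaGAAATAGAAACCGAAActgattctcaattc

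These stretches lie, in the same order, at chr3:142620589-142620628, chr3:142594695-142594734, chr3:142559984-142560029, chr3:142530268-142530307, chr11:58199507-58199546 and chr11:58214898-58214937, all on the + strand, and for Irgm1 at chr11:48871421-48871465 on the - strand. The motif sat between positions -64 and -15 from the annotated start in Gbp2, Gbp3, Gbp7, Igtp, Irgm1 and Irgm2, and at -137 to -128 in Gbp2b. The 4 Gbp genes carried it on the reverse strand of the gene, and Igtp, Irgm1 and Irgm2 on the forward strand. In Gbp3 and Irgm1 the capitals cover 2 overlapping matches. Igtp and Irgm2 are neighbours with no gene between them, and their stretches are nearly alike in letters. Gbp7 and Gbp3 are also neighbours, as are Gbp2b and Gbp2. Irf1 held no ISRE-type match in its windows, and its GAS-type match at -90 to -82 is shown because it was the only motif found in it.
Irf1: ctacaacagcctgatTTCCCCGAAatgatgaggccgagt

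The Irf1 stretch lies at chr11:53769909-53769947 on the + strand. GAS-type matches were also found in Gbp7 at -106 to -98 and at -87 to -79, in Igtp at -45 to -37 and in Irgm2 at -75 to -67, and no match of either kind overlapped a match of the other. A match describes the letters only, since no binding was measured here.

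**Figure D1:**
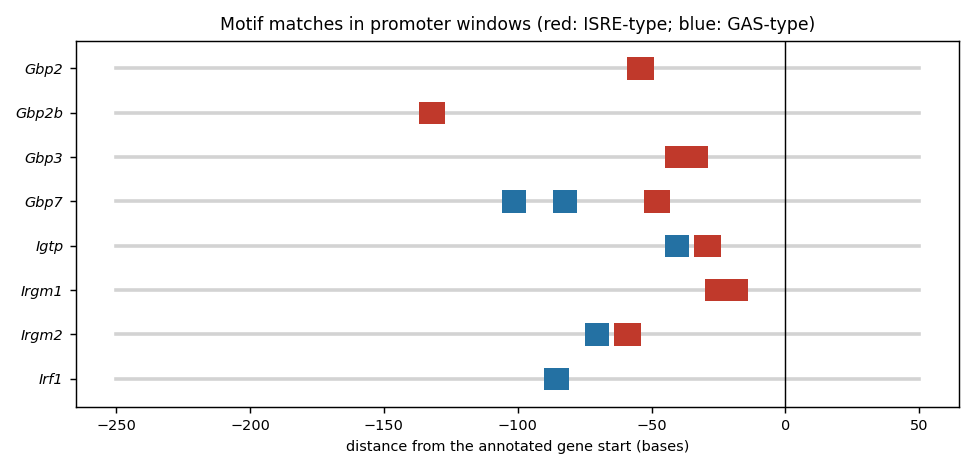
Motif matches in the promoter windows of 8 genes, drawn to scale as distance in bases from the annotated gene start (vertical line at 0). Red blocks are ISRE-type matches and blue blocks GAS-type matches; all red blocks but that of Gbp2b lie between -64 and -15.

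Expression is given as deposited, in log2 units after GCRMA, in which 1 unit is a 2-fold change in signal and values near 2 mark probe-sets without signal. A gene with several probe-sets is represented by the one with the highest mean over all arrays. Levels were compared between mice for the same probe-set and never between genes. The family members resemble each other in sequence, and cross-hybridization between their probe-sets was not tested. A differentially expressed gene (DEG) had an FDR under 0.05 and a fold change (FCH) over 2 in a limma fit over all 4 groups.

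Naïve mice differed from each other more than the mice of any other group did. The SD of the 10 genes over the 5 mice had a median of 1.07 in naïve skin, 0.447 with saline, 0.308 with IMO-3100 and 0.276 with IMO-8400. Naïve mouse 1 was the lowest naïve mouse for all 10 genes. The mean of 19 genes of the hair shaft and growing follicle was 12.9, 11.5, 9.42, 4.75 and 3.55 in naïve mice 1 to 5, and 2.96 to 3.24 in the saline mice, where 15 of the 19 genes were near background. Genes of keratinocytes and fibroblasts were well expressed in every mouse, with list means of 13.4 or more, as the label of skin implies. The mean of 9 macrophage and monocyte genes was 9.89 to 12.5 in naïve mice and 12.6 to 12.9 with saline. As the tissue was whole skin, fewer cells of a type and less RNA per cell cannot be told apart in any value below. Saline mouse 5 was the lowest saline mouse for 9 of the 10 genes. Counts for the 10 genes that changed when these mice were left out are given below with and without them. For the interferon and cell type lists, only some of the counts that changed are given.

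All 10 genes were higher in IL-23 skin with saline than in naïve skin. FCH ran from 2.04 for Gbp7 to 18.4 for Gbp2b, all 14 probe-sets passed, and adjusted p-values (limma, Benjamini-Hochberg) ran from 5.50e-05 to 0.0121. Of all probe-sets tested, 7.58% were higher DEGs in this comparison. The median difference of the 10 genes was 1.80 on the log2 scale, against -0.04 over all probe-sets tested. For 5 of the 10 genes every saline mouse was above every naïve mouse, which held for 11.7% of all probe-sets.

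Irf1, which interferon induces and which then acts on other interferon targets, was 9.20, 10.6, 11.4, 10.8 and 11.0 in naïve mice 1 to 5. With saline it was 11.9, 12.4, 12.1, 11.8 and 11.5. The lowest saline mouse was above the highest naïve mouse, with an FCH of 2.52 (log2 difference 1.33, SE 0.294, adjusted p = 0.00142 in limma).

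Gbp2, an interferon-inducible guanylate-binding protein that protects against intracellular pathogens, was 9.67, 10.9, 12.2, 11.6 and 11.9 in naïve mice. With saline it was 13.6, 13.9, 13.6, 13.6 and 12.9. The groups did not overlap and the FCH was 4.76 (log2 difference 2.25, SE 0.344, adjusted p = 5.50e-05 in limma). Its second probe-set gave a log2 difference of 2.35.

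Gbp2b, a close relative of Gbp2 and its neighbour on the chromosome, was 2.02, 2.81, 6.79, 2.85 and 4.58 in naïve mice, so that 3 of the 5 were below 3 and near background. With saline it was 8.63, 8.05, 7.20, 8.72 and 7.46, above naïve mouse 3 in every mouse. The log2 difference of 4.20 (SE 0.685, adjusted p = 0.000102 in limma) had the widest error of the 10 genes.

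Gbp3, Gbp6 and Gbp7, further members of the Gbp family, had FCHs of 3.47, 4.08 and 2.04. The groups did not overlap for Gbp3, while saline mouse 5 lay within the naïve range for Gbp6 and Gbp7. The other Gbp6 and Gbp7 probe-sets gave log2 differences of 1.89 and 1.58, against 2.03 and 1.03 for the leading ones.

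Among the immunity-related GTPases, the regulators Igtp, Irgm1 and Irgm2 had FCHs of 4.25, 3.38 and 2.10, and the effector Iigp1 an FCH of 3.51. Igtp was 9.13, 10.5, 11.6, 11.7 and 11.1 in naïve mice and 12.9, 13.6, 13.0, 12.9 and 12.1 with saline. No mice overlapped for Igtp, and for Irgm1, Irgm2 and Iigp1 saline mouse 5 fell among the naïve mice.

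**Figure D2:**
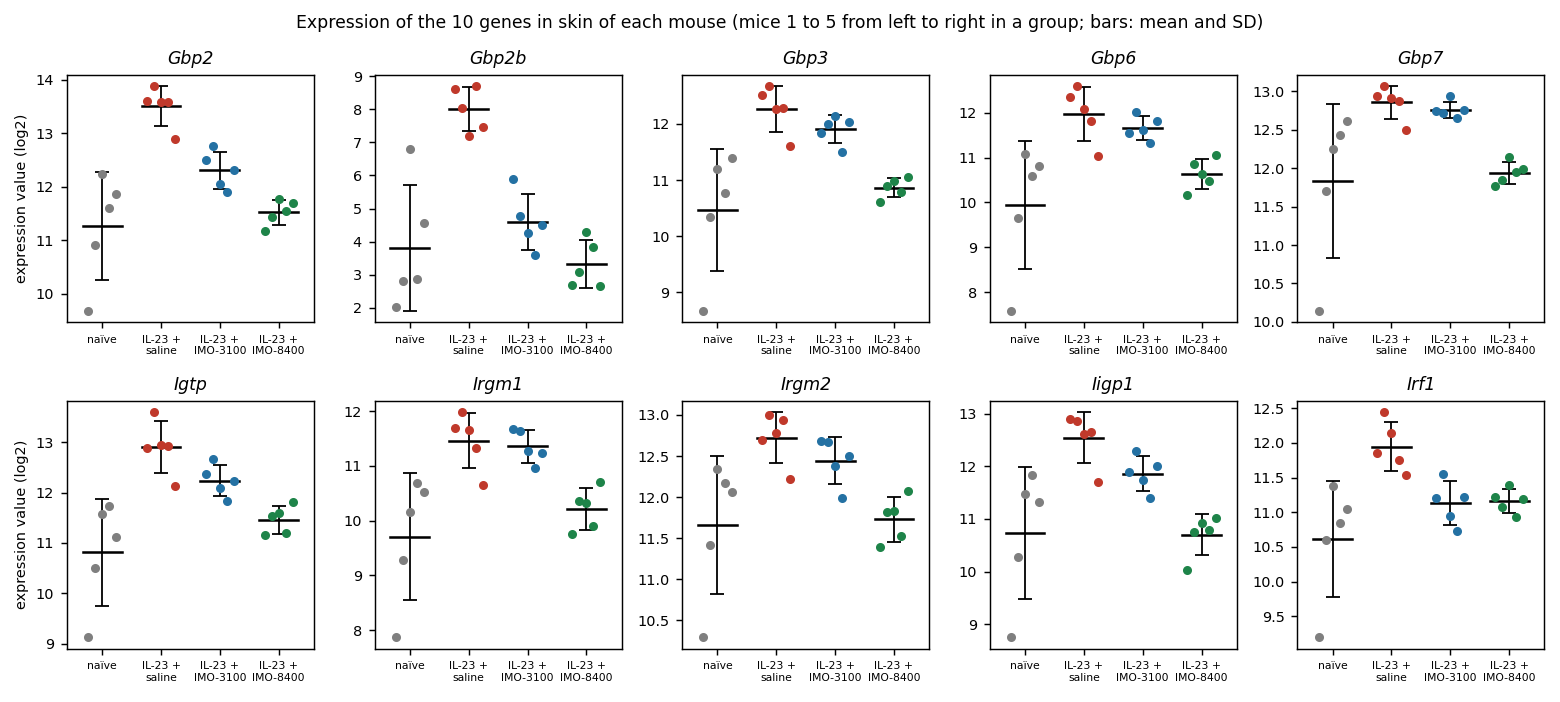
Expression (log2, vertical axis of its own in each panel) of the 10 genes in every mouse of the 4 groups, mice 1 to 5 from left to right, with the mean and SD of 5 mice as bars. All 10 genes were higher with saline than in naïve skin, naïve mouse 1 was the lowest naïve point in every panel, and IMO-8400 mice lay below IMO-3100 mice in most panels, while they overlapped for Gbp2b, Irgm2 and Irf1.

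Without naïve mouse 1, 7 of the 10 genes were still called higher, and the log2 differences of Gbp7, Irgm2 and Irf1 were 0.61, 0.73 and 0.98. With naïve mice 1 and 2 left out, 6 were called, and with naïve mouse 1 and saline mouse 5 left out, 8. When the hair gene mean entered the fit as a covariate, Gbp2, Gbp2b and Igtp were called and the other 7 genes were not. The hair gene mean was 3.55 to 12.9 in naïve mice and 2.96 to 3.24 with saline, without overlap. Its slope thus rests mostly on the naïve mice, and this fit separates hair genes and group poorly.

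IMO-3100 lowered 2 of the 10 genes relative to saline, Gbp2 and Gbp2b. Of all probe-sets, 3.73% were lower DEGs in this comparison, and 11.6% had every IMO-3100 mouse below every saline mouse, as 2 of the 10 genes did. All 10 means were lower than with saline, with a median log2 difference of -0.51, against 0.01 over all probe-sets.

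Gbp2 with IMO-3100 was 12.5, 12.8, 12.1, 11.9 and 12.3 in mice 1 to 5, with an FCH of 2.30 below saline (log2 difference -1.20, SE 0.344, adjusted p = 0.0153 in limma). Gbp2b was 5.91, 4.76, 4.27, 3.58 and 4.50, with an FCH of 10.6 (log2 difference -3.41, SE 0.685, adjusted p = 0.00184 in limma). Every IMO-3100 mouse was below every saline mouse for both genes.

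Irf1 with IMO-3100 was 11.2, 11.6, 10.9, 10.7 and 11.2. It passed the FDR at an adjusted p of 0.0478 (limma) but not the fold, with a log2 difference of -0.81 (SE 0.294), and the highest IMO-3100 mouse and the lowest saline mouse overlapped by a small margin. The remaining 7 genes did not pass the test. The log2 differences were -0.37 for Gbp3, -0.31 for Gbp6, -0.10 for Gbp7, -0.66 for Igtp, -0.11 for Irgm1, -0.28 for Irgm2 and -0.68 for Iigp1. For Irgm1, IMO-3100 mice ranged from 11.0 to 11.7 and saline mice from 10.7 to 12.0, so that the IMO-3100 mice lay inside the saline range, and the 95% interval of the difference, -0.96 to 0.74, spans 0.

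IMO-8400 lowered 7 of the 10 genes relative to the same saline arrays, Gbp2, Gbp2b, Gbp3, Gbp6, Igtp, Irgm1 and Iigp1. Of all probe-sets, 3.59% were lower DEGs in this comparison. For 8 of the 10 genes every IMO-8400 mouse was below every saline mouse, which held for 12.8% of all probe-sets. The median log2 difference was -1.37, against 0.01 over all probe-sets, and 11 of the 14 probe-sets were called.

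Gbp2 was 11.2, 11.4, 11.8, 11.5 and 11.7 with IMO-8400, more than 1 log2 unit below the lowest saline mouse in each of them. Its FCH was 3.97 (log2 difference -1.99, SE 0.344, adjusted p = 0.000548 in limma). Gbp2b was 2.69, 3.07, 4.29, 3.84 and 2.67, with 2 mice below 3, and its log2 difference was -4.70 (SE 0.685, adjusted p = 0.000149 in limma). Both genes were separated from saline in every mouse.

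Gbp3, at 10.6, 10.9, 11.0, 10.8 and 11.1 with IMO-8400, had a log2 difference of -1.40 (SE 0.358, adjusted p = 0.00759 in limma). The corresponding saline values were 12.5, 12.7, 12.3, 12.3 and 11.6. No mice overlapped between these groups, unlike those of Gbp6, for which the difference of -1.33 had an adjusted p of 0.0441 (limma) and IMO-8400 mouse 5 lay above saline mouse 5. Without the filter on the probe-sets tested, the adjusted p of Gbp6 was 0.0648, and its call was lost in 8 of the 10 fits that left out a mouse of either group, while its difference lay between -1.57 and -1.18 under all alternatives run. The other Gbp6 probe-set was called (-1.69, adjusted p = 0.00477 in limma), with every IMO-8400 mouse below every saline mouse.

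Iigp1 was 10.0, 10.7, 10.9, 10.8 and 11.0 with IMO-8400 and 12.9, 12.9, 12.6, 12.6 and 11.7 with saline, a log2 difference of -1.84 (SE 0.426, adjusted p = 0.00407 in limma) without overlap. Igtp had a log2 difference of -1.44 and Irgm1 of -1.25, the latter losing its call in 5 of 10 such fits with a difference between -1.45 and -1.10 under all alternatives run. The genes not called were Gbp7 (-0.92, adjusted p = 0.0347), Irgm2 (-0.997, adjusted p = 0.0169) and Irf1 (-0.78, adjusted p = 0.0541 in limma). Gbp7 and Irgm2 thus passed the FDR and missed the fold, Irgm2 with an FCH of 1.995, and the other Gbp7 probe-set was called with a log2 difference of -1.43. In all 3 genes every IMO-8400 mouse was nonetheless below every saline mouse. Irgm2 gained a call in 5 of 10 fits that left out a mouse and Gbp7 in 1 of 10. Without saline mouse 5, 9 of the 10 genes were called, and with other single mice left out 5 to 8.

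**Figure D3:**
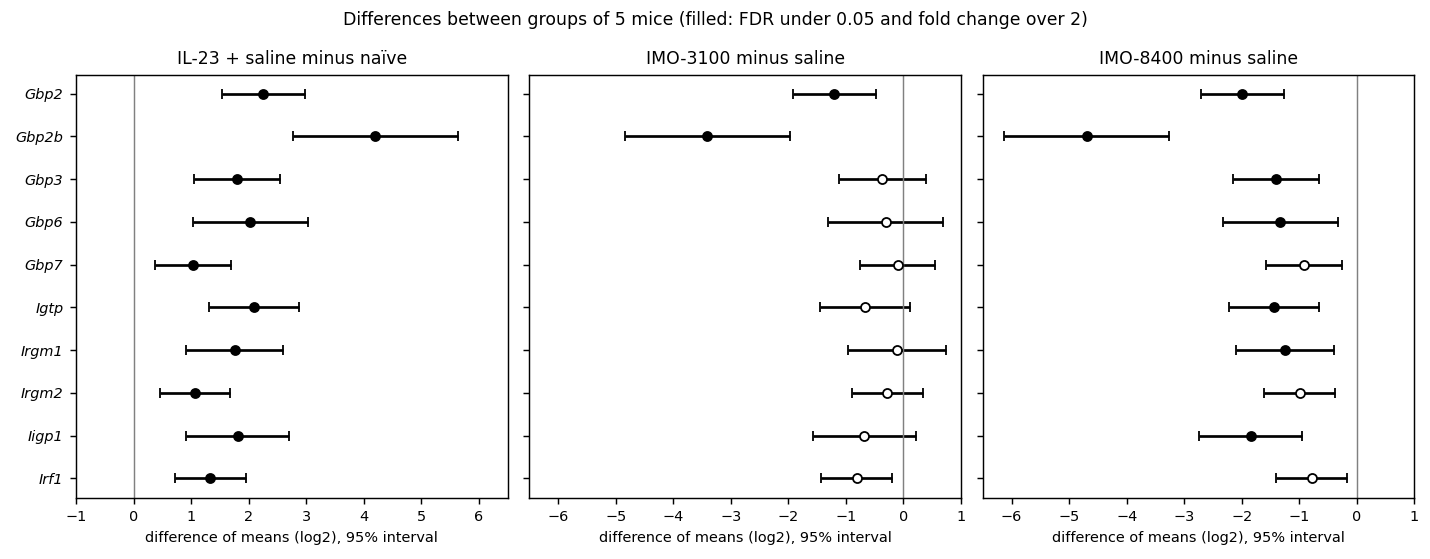
Differences of group means (log2, horizontal axes of equal width) with 95% intervals from the limma fit for the 10 genes, with 5 mice in each group. Filled points are DEGs; all 10 are filled for IL-23 with saline against naïve, 2 for IMO-3100 against saline and 7 for IMO-8400 against saline.

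The antagonists were also compared directly, as 1 pair at the same dose and days. In the fit over all 4 groups no gene was a DEG (0 of 10 by limma, with 7 of 10 at an unadjusted p under 0.05), and lower DEGs made up 0.245% of all probe-sets. The adjusted p-values ran from 0.104 to 0.998. The mean was lower with IMO-8400 than with IMO-3100 for 9 of the 10 genes, with a median log2 difference of -0.92 against 0.02 over all probe-sets. For 7 genes every IMO-8400 mouse was below every IMO-3100 mouse, which held for 4.62% of all probe-sets.

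The differences between IMO-8400 and IMO-3100 were of similar size in several genes. Iigp1 was 11.9, 12.3, 11.7, 11.4 and 12.0 with IMO-3100, a log2 difference of -1.16 (95% interval -2.06 to -0.27). Irgm1 was 11.7, 11.6, 11.3, 11.0 and 11.2 with IMO-3100 and 9.76, 10.4, 10.3, 9.90 and 10.7 with IMO-8400, a log2 difference of -1.15 (95% interval -1.996 to -0.297). Neither gene had a mouse of one antagonist within the range of the other.

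Gbp3 gave a log2 difference of -1.04 (95% interval -1.79 to -0.29) and Gbp6 of -1.02 (95% interval -2.02 to -0.02). Gbp7 was 12.7, 12.7, 12.9, 12.7 and 12.8 with IMO-3100 and 11.8, 11.8, 12.2, 11.9 and 12.0 with IMO-8400, a log2 difference of -0.82 (95% interval -1.47 to -0.17). The groups were separate for all 3 genes, and for Gbp7 the gap between them was wider than the SD of either.

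The Irf1 means were nearly equal. It was 11.2, 11.1, 11.4, 10.9 and 11.2 with IMO-8400, a log2 difference of 0.03 from IMO-3100 (95% interval -0.59 to 0.65), which allows for a fold change of about 1.5 in either direction. The mice of the groups were intermingled.

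The spread of the naïve mice enters this direct comparison, because the fit takes its error from all 4 groups. When only the arrays of the antagonists were fitted, Gbp3, Gbp6, Irgm1 and Iigp1 were DEGs, lower with IMO-8400, with adjusted p-values of 0.00638, 0.0120, 0.0120 and 0.0125 (limma). The same 4 genes were called when naïve mouse 1 was left out of the fit, with adjusted p-values of 0.00823, 0.0331, 0.0192 and 0.0197 (limma). That alternative was chosen after seeing the data. The share of all probe-sets called lower in these 2 fits is not given here. The 0.245% above belongs to the fit over all 4 groups, so the 4 genes cannot be set against it.

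**Figure D4:**
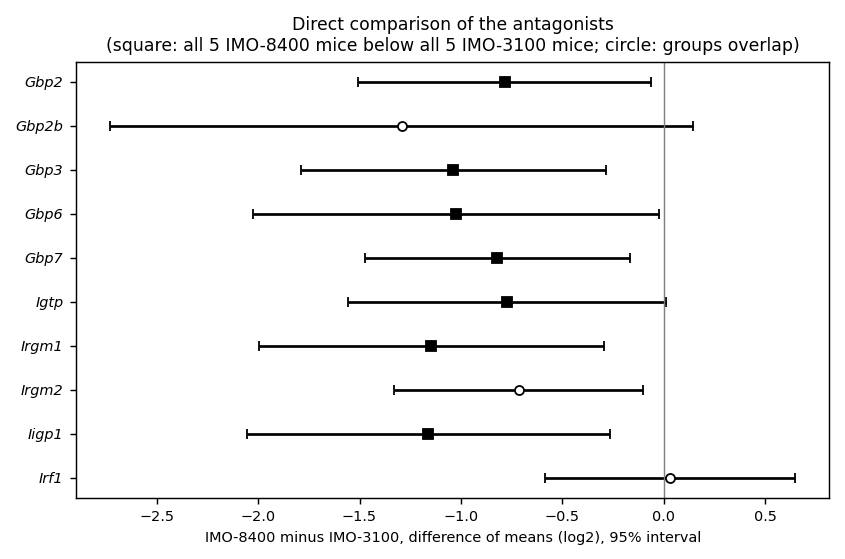
IMO-8400 minus IMO-3100 (log2, horizontal axis) with 95% intervals from the fit over all 4 groups, 5 mice with each antagonist. Squares mark the 7 genes for which all IMO-8400 mice were below all IMO-3100 mice, and Irf1 lies at 0.03.

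Relative to naïve skin, 5 of the 10 genes remained higher with IMO-3100, namely Gbp2, Gbp3, Gbp6, Igtp and Irgm1. Higher DEGs made up 4.9% of all probe-sets in this comparison. The log2 differences were 1.05, 1.43, 1.72, 1.42 and 1.65 in that order. For 5 genes (Gbp3, Gbp6, Gbp7, Igtp and Irgm1) every IMO-3100 mouse was above every naïve mouse, as were 7.68% of all probe-sets. Without naïve mouse 1, 3 genes were called (Gbp6, Igtp and Irgm1), without naïve mice 1 and 2 none was (0 of 10), and without naïve mouse 3, 8 were called.

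With IMO-8400, 0 of the 10 genes were higher DEGs relative to naïve skin (limma, and 0 at an unadjusted p under 0.05), where 3.6% of all probe-sets were. No gene had all IMO-8400 mice above all naïve mice, against 6.18% of all probe-sets. The log2 differences ran from -0.50 for Gbp2b to 0.70 for Gbp6, with a median of 0.33. The interval for Gbp6, -0.30 to 1.70, does not show equal levels, and the interval for Irf1 was -0.07 to 1.17. Signs were not stable, and Gbp2, Gbp3, Gbp7 and Irgm2 were below the naïve mean once naïve mouse 1 was left out.

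The 10 genes varied together over the 20 mice. Pearson's r of a gene with the mean of the other 9 ran from 0.772 for Gbp2b to 0.983 for Gbp2, and after removing group means from 0.598 to 0.986, as a description over arrays that share groups and, within a group, treatment. Averaged over the 10 genes and centred on the mean of all mice, naïve mice stood at -2.59, -1.17, 0.13, -0.37 and -0.19 and saline mice at 1.29, 1.496, 1.10, 1.16 and 0.45. IMO-3100 mice stood at 0.51, 0.59, 0.22, -0.14 and 0.34, and IMO-8400 mice at -0.92, -0.56, -0.33, -0.63 and -0.39. No IMO-8400 mouse reached the lowest IMO-3100 mouse. The SD of this mean was 1.09 in naïve mice, 0.39 with saline, 0.28 with IMO-3100 and 0.23 with IMO-8400. The naïve mice, and mouse 1 most of all, thus weigh most in r after removing group means. At -2.59, naïve mouse 1 also lay farthest from the mean of all mice, so it weighs in the other r values here and below. No r was computed without it.

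The genes whose pattern over the 20 mice was most like this mean, among 13899 ranked, were Psmb10 (r = 0.972), Gbp8 (0.964), Nmi (0.963), Ifi47 (0.962) and Psmb9 (0.961), followed by Zbp1, AW112010, Gsdmd, Serpinb9 and Erap1 at 0.953 to 0.945. Psmb10 and Psmb9 are subunits of the immunoproteasome, Gbp8 is a further guanylate-binding protein and Ifi47 a further immunity-related GTPase. Gbp8 was called higher with saline than in naïve skin (log2 difference 3.11) and lower with IMO-8400 (-2.73, adjusted p = 0.0226 in limma). With IMO-3100 it was -1.15 from saline (adjusted p = 0.340).

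The ligand Ifng was near background in all naïve mice, at 2.17 to 2.31. With saline it was 6.53, 8.39, 6.89, 5.78 and 5.02, at least 11.5-fold higher (adjusted p = 6.23e-07 in limma). With IMO-3100 it was 3.05, 4.47, 3.05, 2.92 and 3.73, and with IMO-8400 2.89, 2.89, 3.13, 2.94 and 3.11. Both antagonists thus left every mouse below the lowest saline mouse, with log2 differences of -3.08 and -3.53. The difference between the antagonists was not called (-0.45, adjusted p = 0.585 in limma). Ifng was below 3 in 1 IMO-3100 mouse and 3 IMO-8400 mice, so the size of this difference near background is uncertain. Over the 20 mice Ifng had an r of 0.782 with the mean of the 10 genes, and of 0.343 after removing group means. Ifng hardly varied among naïve mice (SD 0.056), where the mean of the 10 genes varied most (SD 1.09). This limits the second r.

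Of 13 tested genes of interferon-gamma ligand, receptors and signaling, 5 were higher with saline than in naïve skin (Ifng, Ifngr1, Irf8, Socs3 and Stat2). With IMO-3100, 1 was lower than with saline (Ifng), and with IMO-8400, 2 were (Ifng and Stat2). The median differences were 0.65, -0.20 and -0.32 on the log2 scale. Without naïve mouse 1, 3 of the 13 were higher with saline. Irf8, a transcription factor of myeloid cells, stayed above naïve skin with both antagonists, at 1.81 and 1.78.

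Of 19 other interferon-gamma targets, 13 were higher with saline, and 5 were lower than saline with IMO-3100 and 4 with IMO-8400. Without naïve mice 1 and 2, 10 of 18 were higher with saline. With naïve mouse 1 and saline mouse 5 left out, 6 of 18 were lower with IMO-8400. The chemokine genes Cxcl9 and Cxcl11, whose products draw T cells, fell with both. The log2 differences of Cxcl9 were -2.85 with IMO-3100 and -3.68 with IMO-8400. Cxcl11 was near background with either antagonist and at least 15.1-fold lower than with saline in both. Ciita, the regulator of MHC class II genes, and Tap2, a peptide transporter subunit, were called lower with IMO-3100 alone (-1.64 and -1.13), where the values with IMO-8400 were -0.80 and -0.64. The direct differences between the antagonists for these genes were 0.84 and 0.49 (adjusted p = 0.308 and 0.263 in limma), so that a difference was not shown. Psmb10 was called lower with IMO-8400 alone (-1.13, against -0.75 with IMO-3100), and its direct difference of -0.38 was likewise not called (adjusted p = 0.411 in limma).

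Of 18 type I interferon targets, 15 were higher with saline than in naïve skin, with a median log2 difference of 1.60. With IMO-3100 none was lower than with saline (0 of 18 by limma, and 0 at an unadjusted p under 0.05), the median was 0.24, and 17 were above naïve skin. With IMO-8400, 1 was lower than with saline (Zbp1, a sensor of nucleic acids in Z form, at -1.69), the median was -0.64, and 1 was above naïve skin (Irf7, at 1.90). Between the antagonists the median was -0.91 with 0 of 18 called (limma, with 10 at an unadjusted p under 0.05). These counts depended on the naïve mice. The mean of the list was 8.26 in naïve mouse 1 and 9.66 in naïve mouse 2, against 11.0, 11.6 and 11.4 in naïve mice 3 to 5 and 11.4 to 12.7 with saline. Without naïve mouse 1, 10 of the 18 were higher with saline and 13 with IMO-3100 than in naïve skin, and without naïve mice 1 and 2, 3 and 5 were. The same omissions left 0 lower with IMO-3100 than with saline in limma (1 and 2 at an unadjusted p under 0.05), while 4 and 6 of the 18 were lower with IMO-8400 than with IMO-3100. The comparisons with saline share the saline arrays and those with naïve skin the naïve arrays.

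Of 17 other interferon-inducible GTPases listed, 5 had a probe-set with a single symbol and were tested. Of these 5, 4 were higher with saline (Gbp8, Ifi47, Mx1 and Mx2). Lower than saline were 0 with IMO-3100 (limma, and 0 at an unadjusted p under 0.05) and 1 with IMO-8400 (Gbp8). Without naïve mouse 1, 3 of the 5 were higher with saline, 1 was lower with IMO-3100 and 2 with IMO-8400, and without naïve mice 1 and 2, 1 was higher with saline. Mx1 and Mx2, genes of the dynamin-like GTPases, were 0.40 and 1.08 from saline with IMO-3100 and -0.37 and -0.30 with IMO-8400, none of them called. The relatives Atl1, Atl3 and Irgq, which interferon is not known to induce, had no DEG between saline and naïve skin (0 of 3 by limma, and 0 at an unadjusted p under 0.05), with a median of -0.15. Of 12 genes of ATG8 conjugation and ubiquitin adaptors, which help to place these GTPases on membranes, 0 were DEGs, in the comparison of saline with naïve skin (limma, with 5 at an unadjusted p under 0.05). Atg5 and Atg7 passed the FDR there without the fold, at log2 differences of 0.46 and -0.72 (adjusted p = 0.00376 and 0.000807 in limma).

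Markers of other cells moved with some of these comparisons. Of 9 T cell genes 7 were higher with saline, and of 9 cytotoxic and NK cell genes 8 were. Relative to saline 5 and 5 were lower with IMO-3100 and 3 and 5 with IMO-8400. Without naïve mouse 1 in the fit, 6 and 8 were higher with saline than in naïve skin. In that fit 5 and 8 were lower than saline with IMO-3100, and 4 and 7 with IMO-8400. Averaged over the cytotoxic and NK cell list, expression was 3.88 to 6.68 in naïve mice, 8.93 to 10.4 with saline, 7.74 to 8.79 with IMO-3100 and 7.69 to 8.78 with IMO-8400, so that the antagonist groups covered nearly the same range. Eomes and Tbx21 of this list were near background in all naïve mice. The mean of the 9 macrophage and monocyte genes was 12.6 to 12.9 with IMO-3100 and 11.7 to 12.5 with IMO-8400, without overlap. Between the antagonists 0 of these 9 genes were called (limma, with 1 at an unadjusted p under 0.05). The median log2 difference was -0.23 and the lowest -2.26, so the list means do not show a fall of the same size in each gene. No gene of the list was near background in all mice of a group. The count of 0 called depended on the naïve mice. Without naïve mouse 1, 1 of 8 tested genes of this list was lower with IMO-8400 than with IMO-3100. Without naïve mice 1 and 2, 2 of 8 were. The mean of 10 endothelial genes was 7.68 to 8.21 with IMO-3100 and 8.28 to 8.67 with IMO-8400. Of all 30960 probe-sets tested, 2762 were lower DEGs with saline than in naïve skin. Higher DEGs relative to saline numbered 833 with IMO-3100 and 1380 with IMO-8400. Of 6 adipocyte genes, 5 were lower with saline than in naïve skin (median -1.51), and 3 were higher than saline with each antagonist (medians of 0.81 with IMO-3100 and 0.92 with IMO-8400). Of 6 melanocyte genes, 5 were lower with saline. Relative to saline, 2 of 8 skeletal muscle genes were higher with IMO-8400 and 2 of 9 keratinocyte genes with each antagonist. The part of these cells in the values of the GTPases was not tested.

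**Figure D5:**
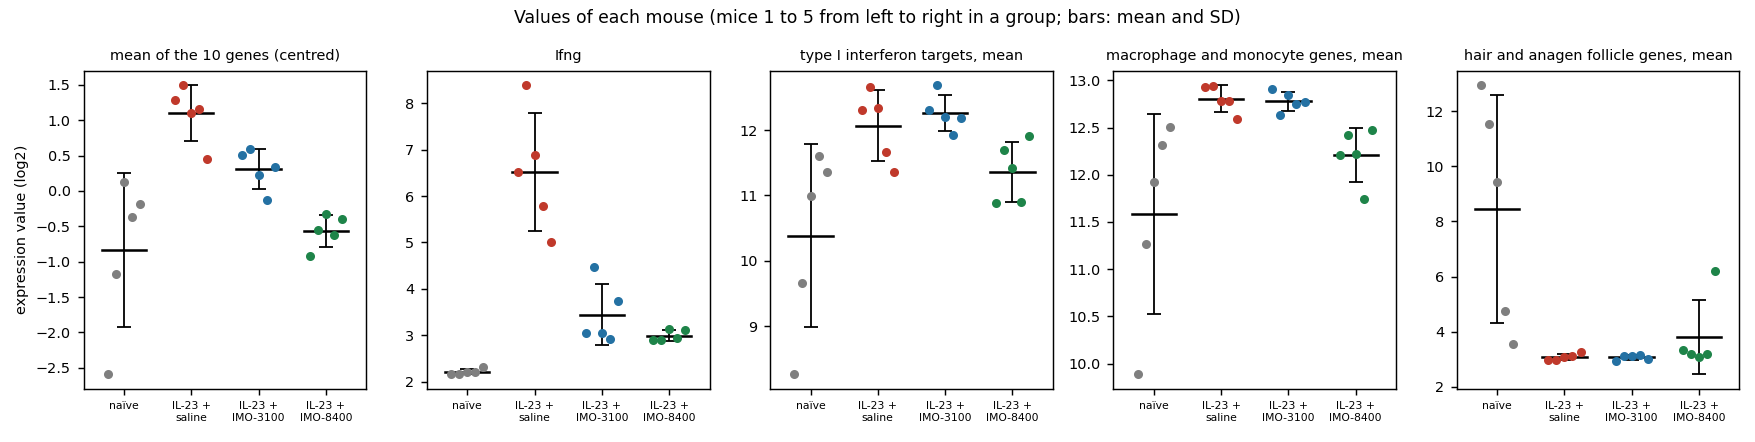
Values of every mouse (log2, an axis of its own in each panel), mice 1 to 5 from left to right with the mean and SD of 5 mice, for the centred mean of the 10 genes, Ifng, and the means of 18 type I interferon targets, 9 macrophage and monocyte genes and 19 hair genes. Ifng was low with both antagonists. The mean of the type I interferon targets was 11.92 to 12.69 with IMO-3100 and 11.35 to 12.67 with saline. Naïve mouse 1 had the highest hair gene mean, 12.9, and the lowest mean of the 10 genes.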

How the data were processed

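Total RNA of skin was hybridized to Affymetrix mouse4302 arrays. The authors made expression values on the log2 scale with GCRMA (version not given in the sources used here), and the deposited table of these values was used without further normalization. Groups came from the sample labels, and mice were numbered 1 to 5 within a group in record order. The record of the series speaks of doses of a single antagonist, whereas the sample labels and the methods of the study name 2 antagonists, which were used here. Intensities of the arrays carry no read depth, and the 5 arrays of each group limit the precision.

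Of 45101 probe-sets, 34958 had a single gene symbol, 932 several and 9211 none in the platform annotation, which can be old, and all 10 genes matched a current Entrez gene. Tests took the probe-sets that exceeded 2 on 3 or more arrays and whose SD exceeded 0.1, as in the methods of the study. The lowest value was 2.02, so that the value filter removed 0 probe-sets and the SD filter 14141. Differences were fitted with limma 3.58.1 in R 4.3.3 (4 group means, 20 arrays, moderated statistics, Benjamini-Hochberg over 30960 probe-sets), for 6 comparisons, and tested on simulated data first. A group with all 5 values below 3 was called near background, and a fold against it is a lower bound. Named were the 10 genes, Ifng, up to 3 called genes of each list with the largest change and genes singled out after their values were seen, and the 10 genes most correlated with the mean. The genes and lists were chosen with earlier results of these data known. Listed genes without a probe-set of a single symbol were not analysed here. Alternatives were no filter, a filter of 4 in 5 arrays, a floor of 4, equal 75th percentiles, quantile normalization, only the groups compared, a robust trended prior, the mean of all probe-sets of a gene, the hair gene mean as covariate, naïve mice 1 and 2 left out, and each mouse left out in turn. Leaving out naïve mouse 1 from comparisons without naïve mice, and naïve mouse 1 with saline mouse 5, and the omissions for the gene lists were added after seeing the data.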

Additional observations from a re-analysis of the deposited data

Results flagged for a closer look

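Among 40 groups of 5 mice (10 genes in 4 groups), 2 held a mouse far from the others. Chance gives about 1 in 20, so this number is no more than chance gives. The groups are also not independent, because the 10 genes were measured in the same mice. Iigp1 in saline mouse 5 was 11.7, the nearest saline mouse was 12.6, and the gap was 0.762 of the range of the group. Iigp1 in IMO-8400 mouse 1 was 10.0, the nearest mouse was 10.7, and the gap was 0.735 of the range.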

How the results depend on the processing

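Of the counts of genes called, those of IMO-3100 against saline (2), IMO-8400 against saline (5 to 9) and IMO-8400 against naïve (0) stayed within 1.5 times of the reported counts or at 0 under every alternative run. The 10 genes called for saline against naïve fell to 3 with the hair gene mean as covariate and to 6 with naïve mice 1 and 2 left out. For IMO-8400 against IMO-3100 the count rose from 0 to 4 with only the antagonist arrays. It was also 4 with naïve mouse 1 left out, and with naïve mouse 1 and saline mouse 5 left out. Shares of all probe-sets called under the alternatives are not given here. The 5 genes called for IMO-3100 against naïve became 1 with only the groups compared, 0 with the hair covariate, 0 without naïve mice 1 and 2, 3 without naïve mouse 1 and saline mouse 5, and 3 to 8 with each mouse left out in turn. Of 660 alternative values of single genes, not counting those that leave out a mouse in turn, 592 kept their direction and side of the threshold, 31 lost and 15 gained a call, and 22 changed sign.

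Signs changed most often for IMO-8400 against naïve, where no gene was called. With the hair covariate the difference was -0.43 for Gbp2, -0.41 for Gbp3, -0.29 for Gbp6, -0.72 for Gbp7, -0.083 for Igtp, -0.45 for Irgm1 and -0.50 for Irgm2. Without naïve mice 1 and 2 the values were -0.38, -0.25, -0.19, -0.49, -0.018, -0.25 and -0.46 in the same order. Without naïve mouse 1 and saline mouse 5, Gbp2 was -0.13, Gbp3 -0.057, Gbp7 -0.31 and Irgm2 -0.27. With each mouse left out in turn, the same comparison ran from -0.13 to 0.51 for Gbp2, -0.94 to 0.25 for Gbp2b, -0.057 to 0.63 for Gbp3, -0.31 to 0.31 for Gbp7, -0.27 to 0.24 for Irgm2 and -0.53 to 0.24 for Iigp1. The naïve mice whose omission turned the sign were mouse 1 for Gbp2, Gbp3, Gbp7 and Irgm2, mouse 3 for Gbp2b, and mice 3, 4 and 5 for Iigp1. For IMO-3100 against naïve, Gbp7 was -0.036, Iigp1 -0.0064 and Irf1 -0.099 with the hair covariate, and Gbp2b -0.14 without naïve mice 1 and 2. With mice left out in turn, Irgm1 ran from -0.31 to 0.024 for IMO-3100 against saline and Irf1 from -0.071 to 0.14 for IMO-8400 against IMO-3100. The causes were not tested. No paired analysis was possible because the labels give no shared replicate numbers.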
